A study of Mus musculus with 15 samples.

Results

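The genes that carry out pyroptosis and necroptosis, the lytic forms of programmed cell death, were followed through RNA sequencing of mouse distal colon. They were chosen by gene symbol, without use of any measured value: the sensors Zbp1 and Nlrp6, the adaptor Pycard, the caspases Casp1, Casp4 and Casp8, the pore-forming protein Gsdmd, the kinases Ripk1 and Ripk3, and Mlkl. All 10 were found among the 12897 genes of the count tables, and 9 of them among the 12370 genes shared by all 3 tables. Zbp1 was read in every group other than treated Irf1-/- mutants, for which the count tables hold no Zbp1 count.

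The libraries came from 5 groups of 3 mice on the C57BL/6 strain. Wild-type B6 mice were sampled untreated in 2 separate sets (set 1 and set 2) and, as a separate treated group, on day 26 (D26) after a single injection of the carcinogen azoxymethane (AOM) at 7 mg/kg on day 1 and dextran sulfate sodium (DSS, which injures the colon epithelium) at 2% from day 8 to day 11. Mice lacking interferon regulatory factor 1 (Irf1-/-) were sampled untreated and at D26 of the same regimen. The deletion was carried by every cell of these mutants, the tissue was whole distal colon, and the sample labels give no age or sex.

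In pyroptosis, sensor proteins such as NLRP6 gather the adaptor ASC (encoded by Pycard) and caspase-1 into an inflammasome, while caspase-4 (also named caspase-11 in mouse) is activated by bacterial lipopolysaccharide in the cytosol. Either caspase cleaves gasdermin D (Gsdmd), whose freed end forms pores in the plasma membrane. In necroptosis, RIPK1 or the nucleic acid sensor ZBP1 engages RIPK3, which phosphorylates the membrane-disrupting protein MLKL, and caspase-8 holds this route in check. NLRP6 is best known from the intestinal epithelium, and IRF1 is an interferon-induced transcription factor that binds interferon-responsive elements near its target genes.

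The promoter sequences of a few members are shown because IRF1 binds short elements of this kind near genes. RefSeq windows on GRCm38.p6, from 250 bases before to 50 bases after an annotated start, were found for 8 of the 10 genes, and not for Zbp1 and Gsdmd. Each was searched on both strands for the core of the interferon-stimulated response element (ISRE), here GAAA, any 2 bases and GAAA. Among 32851 windows of this length, 3.44% held it, and 3.99% of the 27025 genes with windows had it in at least 1. The windows below are those of Nlrp6 (chr7:140920652-140920951, plus strand), Casp1 (chr9:5298267-5298566, plus strand) and Mlkl (chr8:111338156-111338455, minus strand), which had lower levels in mutants, and of 1 of the 2 annotated starts of Ripk1 (chr13:34002624-34002923, plus strand), whose libraries overlapped between genotypes. Matches are in capitals.
Nlrp6: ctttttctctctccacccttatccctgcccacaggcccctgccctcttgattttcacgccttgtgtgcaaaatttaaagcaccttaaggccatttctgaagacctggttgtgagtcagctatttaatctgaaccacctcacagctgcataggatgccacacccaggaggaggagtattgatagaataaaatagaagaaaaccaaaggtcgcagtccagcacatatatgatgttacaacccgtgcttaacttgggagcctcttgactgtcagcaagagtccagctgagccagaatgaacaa
Casp1: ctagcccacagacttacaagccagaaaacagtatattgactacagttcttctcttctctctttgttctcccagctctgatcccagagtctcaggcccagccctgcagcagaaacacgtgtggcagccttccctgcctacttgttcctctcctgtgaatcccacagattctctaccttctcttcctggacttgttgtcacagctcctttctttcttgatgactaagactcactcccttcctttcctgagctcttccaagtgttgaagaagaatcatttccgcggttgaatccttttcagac
Mlkl: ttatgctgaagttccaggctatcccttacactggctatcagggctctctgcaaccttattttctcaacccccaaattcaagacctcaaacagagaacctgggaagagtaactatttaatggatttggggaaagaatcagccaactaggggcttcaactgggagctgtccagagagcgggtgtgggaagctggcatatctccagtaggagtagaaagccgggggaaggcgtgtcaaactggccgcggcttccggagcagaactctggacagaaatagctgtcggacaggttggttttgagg
Ripk1: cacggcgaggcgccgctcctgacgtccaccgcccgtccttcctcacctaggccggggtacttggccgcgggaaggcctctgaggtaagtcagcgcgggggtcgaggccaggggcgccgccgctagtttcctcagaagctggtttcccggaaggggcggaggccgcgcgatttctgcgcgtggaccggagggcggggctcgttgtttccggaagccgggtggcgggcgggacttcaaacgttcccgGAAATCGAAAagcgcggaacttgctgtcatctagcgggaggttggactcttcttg
Ripk1 was the only one of the 8 genes with a match. Its ISRE core began 5 bases before the start. The absence of a match in the other 7 genes says only that these letters are not in the windows searched.

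Total counts ran from 22266607 to 22869853 per library. Levels are TMM-normalised CPM, that is, counts scaled to a common library size, for each mouse in turn. A gene was called where its FC (fold change) reached 1.5 and its adjusted p was below 0.01. All adjusted p-values were obtained with the quasi-likelihood test of edgeR, adjusted by Benjamini-Hochberg over every gene of a comparison, and the value after ± beside a log2 FC is its standard error (SE). Irf1 itself, as the targeted gene, was read at 161, 155 and 144 CPM in set 1 and at 141, 128 and 130.5 CPM in set 2, against 79.4, 117 and 87.5 CPM in untreated Irf1-/- mutants. At D26 it was at 173.5, 223 and 227 CPM in B6 and at 108, 123 and 99.97 CPM in mutants. The mutant libraries lay below the B6 libraries in both states, but reads were still counted to Irf1, and a total per gene does not show whether the deleted part was read.

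Of the marker genes of colon epithelium, 9 of 9 were in all tables, with summed levels of 10840 to 16850 CPM over the libraries. For smooth muscle 5 of 5 were present, and for leukocytes 9 of 12, while 0 of 8 markers of T and NK cells were in all tables. The 3 treated B6 libraries stood apart in how counts depended on GC content (slopes of 0.193, 0.136 and 0.285 log2 units per 10% of GC, against -0.124 to 0.032 in the other 12 libraries). In 3 of the 6 treated libraries, B6 replicates 1 and 2 and mutant replicate 1, the X-inactivation transcript Xist was at 25.2 CPM or less, against 321 to 3729 CPM in all others, so Xist was not matched between treated and untreated mice or between the treated genotypes.

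Within untreated B6 colon, the members spanned a wide range when levels were divided by the merged length of all annotated exons of a gene. Over the 6 untreated B6 libraries Casp1 stood at 74.5 ± 9.97 CPM per kilobase and Gsdmd at 55.1 ± 6.77. Pycard (31.3 ± 2.96), Nlrp6 (30.4 ± 2.08) and Casp8 (29.9 ± 1.34) followed and did not differ beyond their SD. The necroptosis genes were lower, with Ripk1 at 7.90 ± 0.282, Mlkl at 6.74 ± 0.943, Ripk3 at 5.33 ± 1.03 and Zbp1 at 1.62 ± 0.176 CPM per kilobase, and Casp4 lay among them at 6.13 ± 0.602. By this measure, Casp1, Gsdmd, Pycard and Nlrp6 were thus read at higher levels than Ripk1, Ripk3, Mlkl and Zbp1 in this tissue. The merged length takes in the exons of every isoform (1497 bases for Casp1, 3800 for Pycard and 8344 for Ripk1). It can exceed the length of the transcript present, so the order of the genes depends on the annotation.

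**Figure D1:**
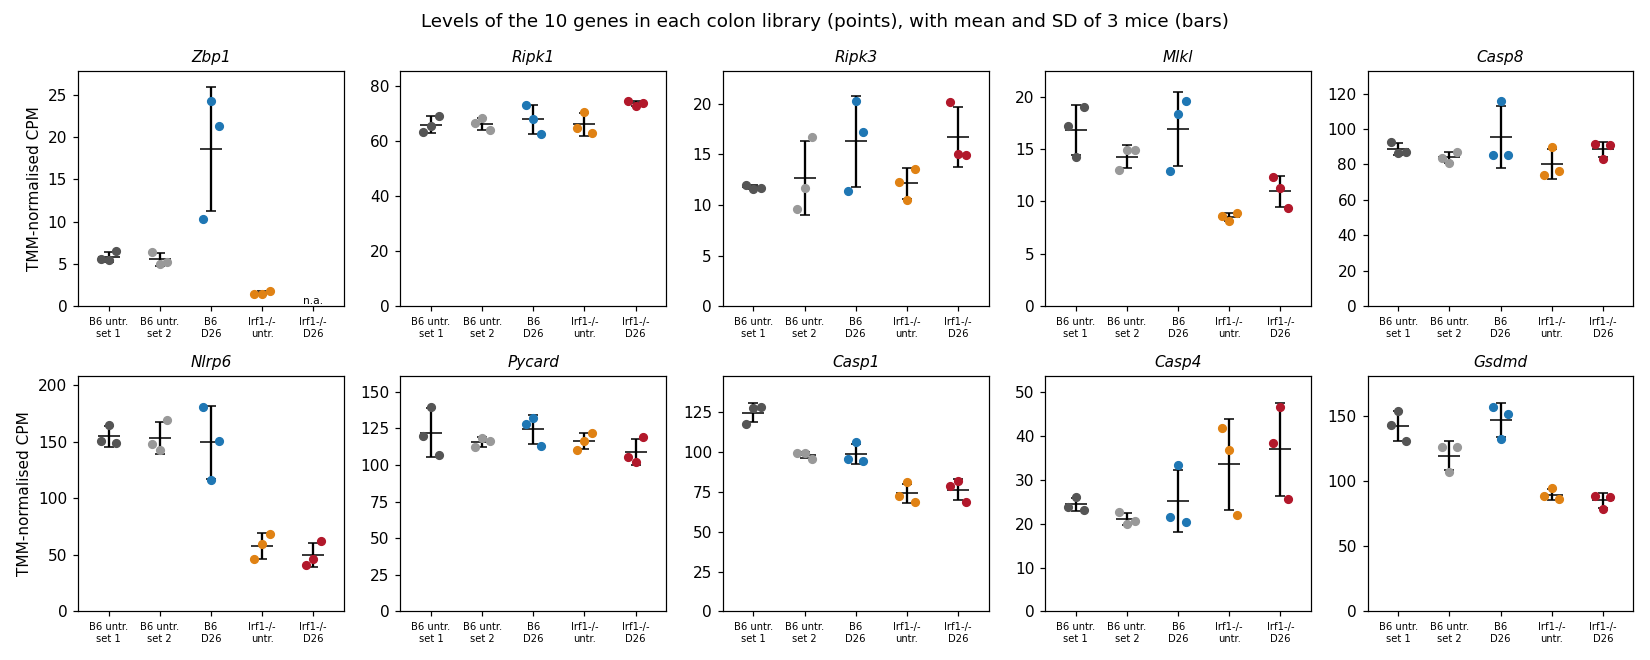
TMM-normalised CPM of each of the 10 genes (vertical axes, each from 0) in each library (points) of the 5 groups. Bars give the mean and SD of 3 mice, and n.a. marks a group without a count for the gene. Nlrp6, Casp1, Gsdmd and Mlkl are lower in every Irf1-/- library than in any B6 library, whereas Pycard, Casp8, Ripk1 and Ripk3 overlap between genotypes.

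At steady state, untreated Irf1-/- mutants were compared with B6 set 2, that is, the genotypes without treatment. The sensor Nlrp6 was lower, and the executioners Mlkl and Gsdmd and the protease Casp1 had lower values that did not meet the call. Casp4 pointed the other way. Of the 10 members 2 were called lower, Nlrp6 and Zbp1, and 0 higher, while 0.318% of the 12588 genes tested were called lower and 0.0874% higher. Zbp1 had passed the authors' filter on low counts (5 CPM in at least 3 samples) only through the B6 libraries, so that it could enter this table only by being high in B6. Of the 9 other members, 1 was called.

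Zbp1, which senses Z-form nucleic acids, was at 6.41, 5.02 and 5.22 CPM in set 2 and at 1.47, 1.42 and 1.85 CPM in mutants. Its log2 FC was -1.81 ± 0.19 (adjusted p = 0.00131), given as a description because of that filter. The call was lost without mutant replicate 1 (log2 FC -1.76, adjusted p = 0.0122) or mutant replicate 2 (log2 FC -1.74, adjusted p = 0.0121).

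Nlrp6, the epithelial inflammasome sensor, was at 148, 143 and 169 CPM in set 2, and at 46.0, 60.0 and 68.7 CPM in the mutants. The groups stood far apart, and the log2 FC of -1.40 ± 0.13 (adjusted p = 0.000691) ranked 19th lowest. Leaving out any 1 of the 6 libraries kept the call.

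Among the genes acting downstream, Mlkl was at 13.0, 14.9 and 14.9 CPM in set 2 against 8.58, 8.10 and 8.91 CPM in mutants (log2 FC -0.74 ± 0.11, adjusted p = 0.0123), and the difference was called in 6 of 13 other settings of the test. Gsdmd was at 126, 106.5 and 126 CPM against 88.1, 94.3 and 86.5 CPM (log2 FC -0.41 ± 0.08, adjusted p = 0.0373). Casp1 was at 99.5, 99.7 and 96.0 CPM against 72.3, 81.1 and 68.9 CPM (log2 FC -0.41 ± 0.07, adjusted p = 0.0248). For none of the 3 genes did the groups overlap, which held in this direction for 7.61% of all genes. With B6 set 1 as the control in place of set 2, all of them passed the call, at log2 FC of -0.98, -0.67 and -0.75, so that 5 of 10 members, Zbp1 among them, were called lower, beside 0.758% of all genes under that control.

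Casp4, the lipopolysaccharide-responsive caspase, was at 22.6, 19.99 and 20.6 CPM in set 2 and at 41.9, 36.7 and 21.9 CPM in mutants. Mutant replicate 3 sat beside the B6 libraries, and the difference was not called (log2 FC 0.67 ± 0.19, adjusted p = 0.198). Without that library it was (log2 FC 0.90, adjusted p = 0.0045). Pycard, Ripk1, Ripk3 and Casp8 had log2 FC between -0.07 and 0.01 with adjusted p of 0.858 or more. Summed leukocyte markers were at 263 to 344 CPM in set 2 and 294 to 378 CPM in these mutants, and summed epithelial markers at 10840 to 13600 and 13390 to 13540 CPM. The epithelial sum leans on the mucin gene Muc2, at a mean of 2419 CPM in set 2 and 3726 CPM in these mutants. Over the 9 epithelial markers the median log2 FC was 0.02. In whole tissue, fewer cells of a type and less RNA per cell cannot be told apart.

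After treatment, the genotypes were compared at D26, and 9 members could be tested. Nlrp6 and Gsdmd were called lower in mutants (2 of 9, against 0.312% of 12483 genes called lower) and no member higher (0.0721% of all genes). Mlkl and Casp1 again had lower values short of the call, and Pycard, Casp8, Ripk1 and Ripk3 overlapped between genotypes.

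Nlrp6 was at 181, 117 and 151 CPM in treated B6 colons and at 41.4, 46.3 and 62.1 CPM in treated mutants. The spread within B6 was wide, yet its lowest library lay above the highest mutant one (log2 FC -1.60 ± 0.19, adjusted p = 0.00544). Gsdmd was at 157, 132 and 152 CPM against 88.7, 78.7 and 87.9 CPM (log2 FC -0.81 ± 0.10, adjusted p = 0.00639).

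These calls depended on which libraries entered the fit. With 1 library left out the log2 FC of Nlrp6 stayed between -1.43 and -1.78 and that of Gsdmd between -0.74 and -0.87, but the calls held in only 2 and 1 of 6 such fits: Nlrp6 lost its call without B6 replicate 1 or 3 or mutant replicate 1 or 2, and Gsdmd in each fit other than that without B6 replicate 2. With a correction for GC content both were called, at log2 FC of -1.48 and -0.68, and Casp1 was added at -0.61 (adjusted p = 0.0084). With log2 Xist as a covariate Nlrp6 was called (adjusted p = 0.00645) and Gsdmd was not (log2 FC -0.81, adjusted p = 0.0121).

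Mlkl was at 12.9, 18.3 and 19.5 CPM in treated B6 and 12.3, 11.2 and 9.37 CPM in treated mutants, its nearest libraries being almost level (log2 FC -0.64 ± 0.19, adjusted p = 0.103). Casp1 was at 95.5, 106 and 94.8 CPM against 79.1, 81.9 and 68.8 CPM (log2 FC -0.38 ± 0.09, adjusted p = 0.0712). Casp4 was at 21.6, 33.4 and 20.5 CPM against 38.4, 46.6 and 25.6 CPM, and here the groups overlapped (log2 FC 0.54 ± 0.24, adjusted p = 0.230). The GC correction took the Casp4 difference to 0.20 (adjusted p = 0.716), and Casp4, at 38.1% GC over its exons, was the member lowest in GC. Summed leukocyte markers were at 407 to 586 CPM in treated B6 and 494 to 506 CPM in treated mutants, and their part in these values was not tested.

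**Figure D2:**
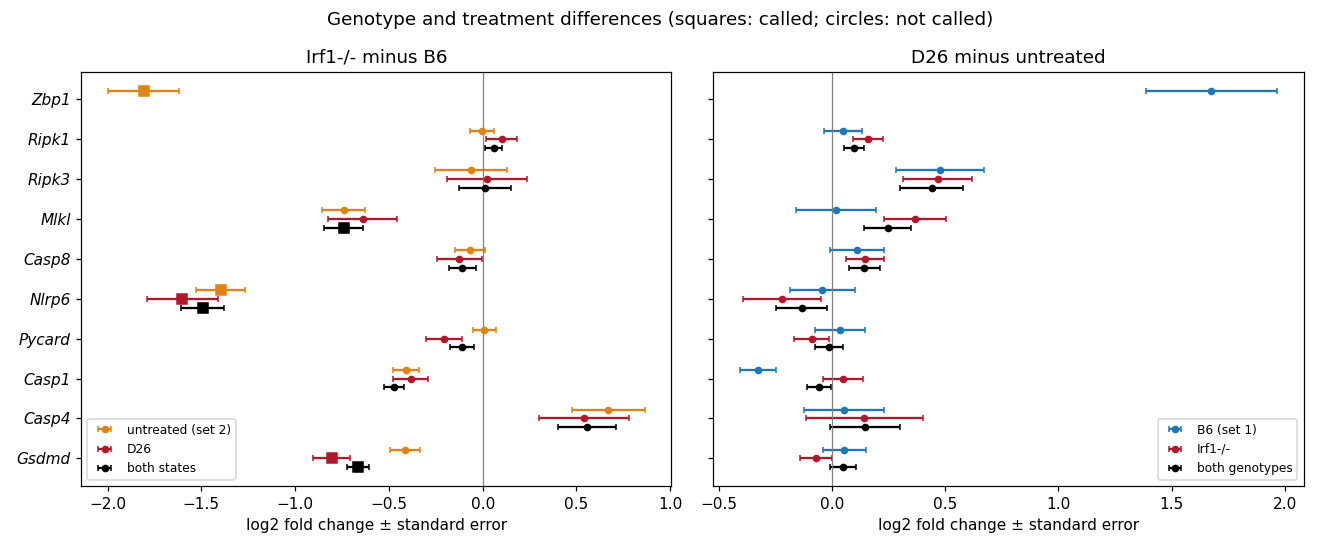
Log2 fold change with its standard error (horizontal axes) of each gene between genotypes (left) and between D26 and untreated colons (right). Squares mark called differences, which are Zbp1 and Nlrp6 in untreated colon, Nlrp6 and Gsdmd at D26 and Nlrp6, Gsdmd and Mlkl over both states, and no gene is called on the right.

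Over both states, with all 15 libraries in 1 fit, Nlrp6, Mlkl and Gsdmd were called lower in Irf1-/- mutants, 3 of 9 members against 0.719% of 12370 genes, and no member higher (0.17% of all genes). The log2 FC were -1.49 ± 0.12 for Nlrp6 (adjusted p = 7.20e-07), -0.74 ± 0.11 for Mlkl (adjusted p = 0.000459) and -0.66 ± 0.06 for Gsdmd (adjusted p = 3.59e-06). All 3 calls held in each of the 15 fits without a library. This fit uses the libraries of both preceding comparisons and is no independent test of them.

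Casp1 differed by less than the 1.5-fold needed, at a log2 FC of -0.47 ± 0.05 (adjusted p = 4.69e-05), and passed with the GC correction (-0.60). Casp4 had a log2 FC of 0.56 ± 0.15 (adjusted p = 0.0318), which was 0.37 (adjusted p = 0.148) with that correction and was called without B6 D26 replicate 2 (0.68, adjusted p = 0.00843). Pycard (-0.11 ± 0.06), Casp8 (-0.11 ± 0.07), Ripk1 (0.06 ± 0.05) and Ripk3 (0.01 ± 0.14) had adjusted p between 0.266 and 0.964. The median log2 FC of the 9 members was -0.11, beside 0.01 over all genes.

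The 6 mutant libraries lay below all 9 B6 libraries for 4 of the 9 members, a pattern held by 0.873% of all genes. For Nlrp6 the highest mutant library was at 68.7 CPM and the lowest B6 library at 117 CPM. The same limits were 81.9 and 94.8 CPM for Casp1, 94.3 and 106.5 CPM for Gsdmd, and 12.3 and 12.9 CPM for Mlkl.

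**Figure D3:**
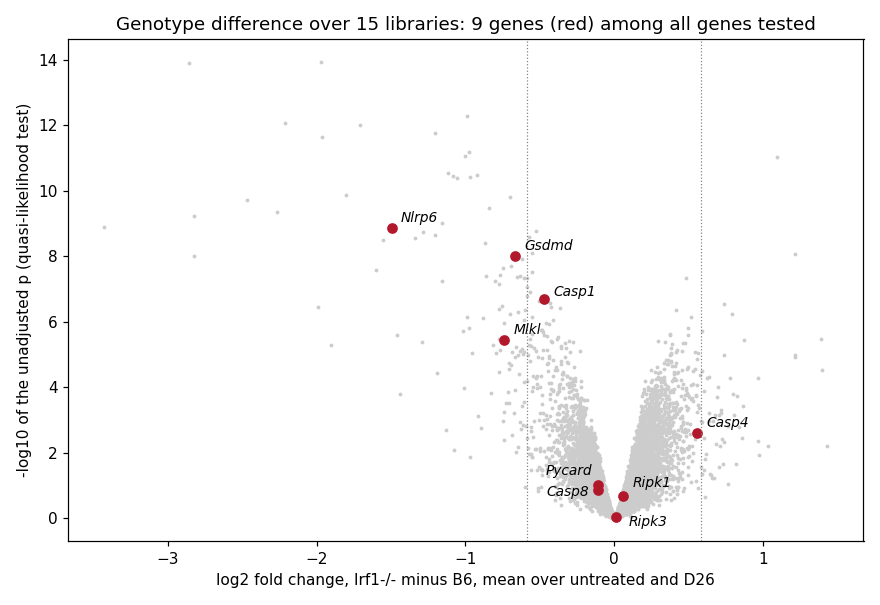
Log2 fold change of each of 12370 genes between Irf1-/- and B6 over both states (horizontal axis) against -log10 of the unadjusted p (vertical axis), with 9 members in red and the 1.5-fold limits dotted. Nlrp6, Mlkl and Gsdmd lie beyond the limit on the lower side, Casp1 just inside it, and Casp4 just inside the limit on the higher side.

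The members were also compared between D26 and untreated colons of each genotype. None was called in B6, where 0.0475% of 12643 genes were called, and none in Irf1-/- mutants, where 0.252% of 12692 were. An unadjusted p under 0.05 was found for 3 of 10 members in B6, a share like the 29.5% of all genes there, and for 3 of 9 in mutants, where 18.6% of all genes had one. The Wald test of DESeq2 and edgeR's exact test called 1 member in B6, Zbp1, where they called 3.49% and 3.64% of all genes. In mutants they called no member and 1.74% and 1.96% of all genes.

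Zbp1 was at 5.55, 5.51 and 6.52 CPM in B6 set 1 and at 10.3, 24.2 and 21.3 CPM in treated B6, every treated library above every untreated one, as for 16.4% of all genes. Its log2 FC of 1.68 ± 0.29 (adjusted p = 0.0200) missed the call, and without treated replicate 1 it was 1.97 and called (adjusted p = 0.00182). Ripk3, the kinase that ZBP1 engages, was at 12.02, 11.6 and 11.7 CPM in set 1 and at 11.4, 20.2 and 17.2 CPM in treated B6 (log2 FC 0.48 ± 0.19, adjusted p = 0.139).

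In mutants Ripk3 was at 12.3, 10.5 and 13.6 CPM untreated and 20.1, 15.03 and 14.9 CPM treated (log2 FC 0.47 ± 0.15, adjusted p = 0.146). Over both genotypes the Ripk3 difference was 0.44 ± 0.14 (adjusted p = 0.0312), under 1.5-fold, and no member was called, while 1.64% of all genes were. Of the 9 members 3 had an unadjusted p under 0.05 there (Ripk3, Mlkl and Ripk1, all with higher values at D26), beside 38.4% of all genes. Mlkl had a log2 FC of 0.02 ± 0.18 in B6 and 0.37 ± 0.14 in mutants. Summed leukocyte markers went from 294 to 378 CPM to 494 to 506 CPM in mutants and from 298 to 468 CPM to 407 to 586 CPM in B6, and their part in the Ripk3, Mlkl and Zbp1 values was not tested.

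Casp1 was at 118, 128 and 129 CPM in set 1 and had lower values in treated B6 (log2 FC -0.33 ± 0.08, adjusted p = 0.0422). Against set 2 the sign turned (0.02, adjusted p = 0.878), and with the GC correction the difference was -0.08 (adjusted p = 0.580). The 2 untreated B6 sets, which share their labels of strain, genotype and treatment and differ in the set number of their titles, differed by a Casp1 log2 FC of -0.34 ± 0.07 (set 2 minus set 1, adjusted p = 0.0590) without overlap, a separation seen in this direction in 11% of all genes. No member was called between the sets, where 0.0644% of 12417 genes were, and the DESeq2 and exact tests also called none of the members, where they called 1.16% and 1.3% of all genes. Casp1 and Gsdmd, 2 of 10 members, had an unadjusted p under 0.05 there, beside 17.2% of all genes. Gsdmd, at 143, 153.5 and 131 CPM in set 1, had a set difference of -0.25 ± 0.09 (unadjusted p = 0.0189 in the same edgeR fit), and Nlrp6 one of -0.01 ± 0.08.

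The response of mutants minus that of B6 was tested as an interaction, and no member was called, where 0.016% of 12483 genes were. At an unadjusted p under 0.05 there was 1 member, Casp1 (0.38 ± 0.12, adjusted p = 0.153), beside 16.9% of all genes, and DESeq2 called none of the members and 0.601% of all genes. The Casp1 value was 0.04 (adjusted p = 0.906) with B6 set 2 in place of set 1 and 0.17 (adjusted p = 0.568) with the GC correction, and that of Gsdmd was -0.37 (adjusted p = 0.216) with set 2. For Nlrp6 (-0.17 ± 0.25) and Gsdmd (-0.12 ± 0.12) the genotype difference was not shown to depend on treatment.

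Casp1, Casp4 and Casp12 are neighbours, in this order, on mouse chromosome 9 in the RefSeq annotation, and Casp12, an inflammatory caspase of the wider pathway list, was called lower over both states (log2 FC -0.74 ± 0.10, adjusted p = 0.000185). It was at 12.4, 14.5 and 12.01 CPM in set 2 against 7.51, 7.79 and 6.71 CPM in untreated mutants, and at 14.98, 17.3 and 14.3 CPM against 10.8, 13.9 and 9.14 CPM at D26. Casp1 and Casp12 thus had lower values in mutants. Casp4, the gene between them, had a higher median in mutants (37.55 CPM, against 22.55 CPM in B6). Its libraries overlapped between genotypes, at 21.93 to 46.61 CPM in mutants and 19.99 to 33.4 CPM in B6. With all libraries in, Casp4 was not called in untreated colons, at D26 or over both states. The GC correction took its D26 log2 FC from 0.54 to 0.20 (adjusted p = 0.716). The ratio of Casp4 to Casp1 counts within a library, which scaling does not touch, was 0.180 to 0.314 in the 9 B6 libraries. In the 6 mutant libraries it was 0.318 to 0.579, with the highest B6 and lowest mutant value nearly level. Lower Casp1 counts also raise this ratio, and how often other pairs of genes separate the genotypes in this way was not tested.

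**Figure D4:**
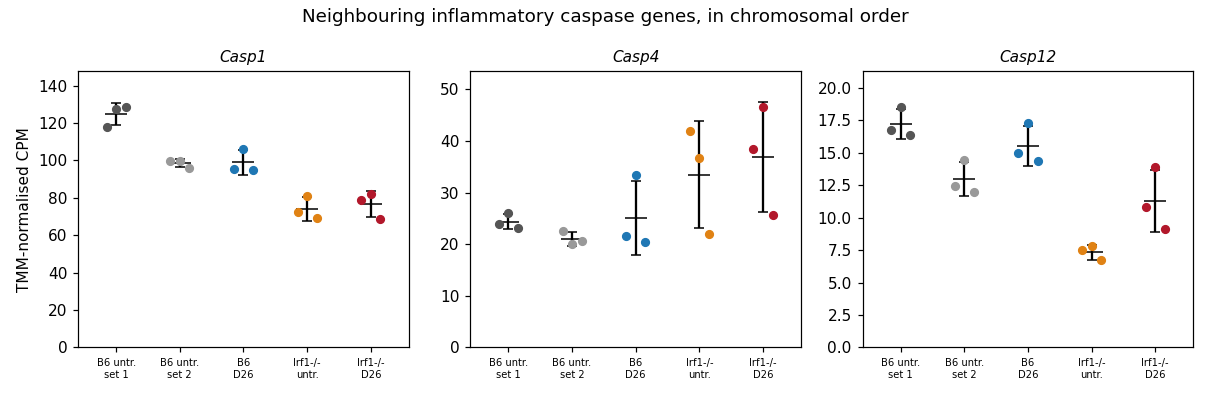
TMM-normalised CPM (vertical axes, from 0) of 3 neighbouring caspase genes in each library (points) with mean and SD of 3 mice (bars). Casp1 is lower in all mutant libraries, Casp12 has its lowest values in untreated mutants, and Casp4 is high in 4 of the 6 mutant libraries, with replicate 3 of each mutant group at 21.9 and 25.6 CPM.

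The wider pathway list held 77 genes, of which 69 were tested. Casp12, described above, was among those called lower in mutants over both states. The median log2 FC of the list over both states was near 0 at -0.005, as over all genes (0.008).

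The list included Rnf31, Rbck1 and Sharpin, the subunits of the linear ubiquitin assembly complex that restrains RIPK1-driven death, which were named after their values were seen. Over both states, all 3 differed between genotypes by under 1.5-fold. In the order named, the log2 FC were -0.51 ± 0.06 (adjusted p = 5.04e-05), -0.27 ± 0.05 (adjusted p = 0.00170) and -0.29 ± 0.06 (adjusted p = 0.00521). The 32 tested death receptor complex and necroptosis regulators of the list, with these 3 among them, had a median log2 FC of -0.03. In mutants, Rnf31 ranged from 28.5 to 35.3 CPM, and in B6 from 36.0 to 55.7 CPM, without overlap, as for 0.873% of all genes in this direction. Rbck1 and Sharpin overlapped between genotypes.

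Between treated and untreated colons no gene of the wider list was called in B6, in mutants or over both genotypes. Of all genes 0.0475%, 0.252% and 1.64% were called there. Over both genotypes 16 of the 69 genes tested had higher and 17 lower values at D26 at an unadjusted p under 0.05, beside 38.4% of all genes. The smallest unadjusted p over both genotypes belonged to Xiap, an inhibitor of caspases (log2 FC -0.37 ± 0.05, adjusted p = 0.0004), to Tnfrsf1a, the receptor for TNF (0.42 ± 0.07, adjusted p = 0.00153), to Cyld, a deubiquitinase (-0.28 ± 0.05, adjusted p = 0.00181), and to Naip6, a sensor with near-identical relatives whose count is uncertain (-0.36 ± 0.07, adjusted p = 0.00205). In B6 alone Nlrp1b (-0.69 ± 0.11, adjusted p = 0.0185) and Il18, a caspase-1 substrate (-0.56 ± 0.13, adjusted p = 0.0379), were among the genes with the smallest p, but both depended on the control set. Nlrp1b was at 41.4 CPM in set 1, 29.1 CPM in set 2 and 25.5 CPM at D26, and Il18 at 134.5, 103.9 and 90.7 CPM (means of 3 mice). In mutants alone Tnfrsf1a had the smallest p (0.42 ± 0.08, adjusted p = 0.0392), followed by Gsdmc3, a gasdermin with near-identical relatives (-0.56 ± 0.14), Tnfsf10, the death ligand TRAIL (-0.36 ± 0.09), and Casp12 (0.62 ± 0.17), all with adjusted p between 0.0837 and 0.0924. The smallest p for the difference between the responses of the genotypes was that of Casp12 (0.77 ± 0.21, adjusted p = 0.112), and between the B6 sets that of the transcription factor Irf2 (-0.38 ± 0.07, adjusted p = 0.0568).

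Genes whose levels followed those of the members across the 15 libraries were named by Pearson r, as a description, since the libraries share genotype groups. Nlrp6 was most like Ly75 (0.962), Mettl7a1 (0.959) and Parp10 (0.958). Gsdmd was most like Btnl5 (0.962) and Btnl4 (0.959), which are near-identical relatives, and Mettl7a1 (0.952). Casp1 was most like Trim30d (0.944) and Mlkl most like Ddx60 (0.911), Gbp7 (0.910) and Herc6 (0.909). Casp4 was most like Rnd3 (0.854), Ripk3 most like Gorasp2 (0.925), Ripk1 most like Cast (0.764), Casp8 most like Ctsz (0.836) and Pycard most like Sgpl1 (0.823). Among the members themselves, Nlrp6 and Gsdmd had the highest r (0.912) and Nlrp6 and Casp4 the lowest (-0.802), while Ripk1 and Ripk3, partners in the necrosome, had an r of 0.099.

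Ripk1 was at 62.5 to 74.2 CPM over all 15 libraries and Casp8 at 74.2 to 115.5 CPM, and Pycard at 102 to 139.7 CPM. Ripk1 overlaps Serpinb6a on the opposite strand over 432 bases in the GENCODE M21 annotation, and whether the counting used strand is not given in the sources used here. For each of these the libraries of the genotypes overlapped.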

How the data were processed

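Distal colons of 15 mice were sequenced as 50 bp pairs from rRNA-depleted, stranded libraries. The 3 tables hold the authors' unnormalized count of reads, as deposited, for each gene that reached 5 CPM in at least 3 samples of a table. The submitters' processing notes name TopHat2 2.0.9, Bowtie 1.0.0, featureCounts, edgeR and mm9, without roles. The authors' 18 CPM and 18 log2 CPM columns and their own fold changes and p-values were not used. Groups came from the sample labels, and the labels call the mice biological replicates.

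Counts were scaled by TMM and fitted with edgeR 4.0.16 in R 4.3.3 over all genes of a comparison, with a call at an FC of 1.5 and an adjusted p under 0.01, as in the study. Self-tests on simulated counts of the 8 comparisons preceded the fits. Alternatives were RLE scaling, the exact test of edgeR, DESeq2 1.42.0, voom in limma 3.58.1, all libraries in 1 fit, a 10 CPM filter, an adjusted p under 0.05, a replicate block, a lowess correction on GC content (span 0.3), both together, other B6 sets and each library left out. Log2 Xist as a covariate was added after seeing the data. Exon length and GC content came from GENCODE M21, and promoters from RefSeq on GRCm38.p6, which is not the build of the counts and was matched by symbol.

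Members, lists and tests were chosen with earlier results of these data known. All members were named, along with Irf1, any called gene of the wider list or else up to 4 with the smallest p, and the 3 genes most like each member. Some results of these lists are not reported here.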

Additional observations from a re-analysis of the deposited data

How the results depend on the processing

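Called members were counted again under each alternative. In untreated colons (2 called) the count was 1 with all 15 libraries in 1 fit, where Zbp1 was not tested. It was 5 with B6 set 1 as control, and 3 (Mlkl added) with DESeq2, the exact test, an adjusted p under 0.05 or both B6 sets. Of all genes 95, 76, 84, 69 and 52 were called lower with these settings in turn, beside 40 without an alternative. With a library left out, 1 to 3 members were called. The 10 CPM filter, under which Zbp1 was not tested, called Mlkl (adjusted p = 0.00962). In B6 after treatment (0 called) the count was 1, Zbp1, with DESeq2, the exact test, an adjusted p under 0.05 or both B6 sets. Of all genes 227, 245, 222 and 99 were called higher with these settings in turn, beside 4 without an alternative. With a library left out, 0 to 1 members were called. Between treated genotypes (2 called) the count was 1 with log2 Xist as a covariate and 0 to 2 with a library left out. Whether replicate numbers pair the mice cannot be settled with 3 libraries a group. The correlation of same-numbered libraries was over 0.1 for every number in none of the comparisons. Between treated genotypes it was -0.223, -0.15 and 0.185 for numbers 1, 2 and 3. With the replicate block, or the block with the GC correction, 0 members were called between treated genotypes, with log2 FC of -1.60 for Nlrp6 and -0.80 for Gsdmd under the block. Over both states (3 called) 3 to 4 were called with a library left out, and in the other 4 comparisons none under any alternative. Casp1 after treatment of B6 reversed to 0.0204 with set 2 as control. Of 868 member values under other settings 847 stayed on their side of the threshold with no change of sign in a value that had an unadjusted p under 0.05, as did 652 of 666 with a library left out. Among these, 40 and 57 values with a p of 0.05 or more changed sign. In most comparisons counts over all genes moved further, from 6 called genes in treated B6 to between 0 and 460, from 51 to between 26 and 134 in untreated colons, from 32 to between 0 and 249 in treated mutants, from 48 to between 7 and 270 between treated genotypes, from 8 to between 3 and 162 between B6 sets, from 2 to between 0 and 75 for the interaction, and from 203 to between 91 and 273 for treatment over both genotypes. For genotype over both states the count went from 110 to between 99 and 141. The cause was not tested. With 3 mice a group, differences in low genes such as Zbp1 (32 to 42 counts in untreated mutants) rest on few reads.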
